A study of Mus musculus with 6 samples.

Results

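The 10 genes described here encode chromatin regulators grouped under the heading of lymphoma-mutated histone modifiers: Ezh2, Eed, Suz12, Kmt2d, Crebbp, Ep300, Kdm6a, Setd2, Tet2 and Arid1a. The heading is a name for the list, and how often each gene is mutated in lymphoma was not examined. The list was set by gene symbol and not by a threshold on measured values, and all 10 were found among the 18193 genes tested. Together they were read by 25 probe sets, and the probe set with the brightest average signal across the 6 arrays stood for its gene. Affymetrix mouse expression arrays were hybridised with RNA from germinal centre B cells of the spleen, prepared with magnetic beads after mice had been immunised with sheep red blood cells. The control group was ImHABCL6 (3 mice), in which a tagged BCL6 is expressed from an immunoglobulin heavy-chain promoter. The other group was ImHABCL6/Uchl1 (3 mice), which carried a Uchl1 transgene in addition, so that deregulated BCL6 was common to both groups. The labels give no age, sex or transgene promoter for these mice. Values are RMA levels on the log2 scale, on which a step of 1 is a 2-fold difference, and every difference is ImHABCL6/Uchl1 minus ImHABCL6.

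Chromatin carries marks that set whether a gene can be transcribed. PRC2 methylates H3K27 and silences genes, KMT2D methylates H3K4 at enhancers, and CREBBP and EP300 acetylate H3K27 at enhancers, so that the last 3 oppose PRC2. Germinal centre B cells depend on EZH2 to hold back cell cycle inhibitors and plasma cell genes while they divide, and lymphomas that arise from them gain EZH2 activity or lose KMT2D or CREBBP. TET2 oxidises methylcytosine in DNA and ARID1A is a subunit of the BAF nucleosome remodeller, so these 2 members are not histone-modifying enzymes in the strict sense.

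Uchl1, the transgene, read 5.01 ± 0.01 in the controls and 5.95 ± 0.08 with the transgene (SD, n = 3), without overlap (difference 0.94, SE 0.12, limma adjusted p = 0.638). The germinal centre markers averaged 9.96 to 10.05 in the controls and 9.78 to 10.32 with the transgene, and T-cell markers lay between 5.18 and 5.38 on all arrays. Erythroid markers were bright, uneven and mostly lower with the transgene, with 12 of 16 listed genes measured. They averaged 10.25, 10.72 and 11.12 in controls 1 to 3 and 8.78, 10.59 and 10.02 in ImHABCL6/Uchl1 replicates 1 to 3. Of the 12, 11 were lower, with a median difference of -1.06 (-0.61 without ImHABCL6/Uchl1 replicate 1) and 0 calls. An unadjusted limma p under 0.05 was reached by 7 of them, beside 4.94% of all genes. Proliferation markers were lower on every ImHABCL6/Uchl1 array (11.34 to 11.52) than on every control array (11.60 to 11.75). ImHABCL6/Uchl1 replicate 2 stood apart in sex-linked genes. Its level of Xist, the RNA that coats the inactive X chromosome in female cells, was 8.56 against 13.19 to 13.68 on the other arrays, and its level of the Y-linked Eif2s3y was 9.72 against 2.78 to 3.21. In whole preparations such as these, fewer cells of a type and less RNA per cell cannot be told apart.

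None of the 10 genes differed detectably between the genotypes. With limma and Benjamini-Hochberg adjustment over all genes, 0 of 10 members and 0% of all genes had an adjusted p under 0.05, and the adjusted p of the members ran from 0.998 to 1. At an unadjusted p under 0.05 the count was 0 of 10 members, beside 4.94% of all genes. Of the log2 differences 6 were below 0 and 4 above, from -0.28 for Kdm6a to 0.24 for Tet2. The median absolute difference of the members was 0.11, and that of all genes was 0.12. For the brightest probe set of each gene, the intervals nevertheless bounded the difference in array signal. The 95% intervals of all 10 spanned 0, and their outermost bounds were -0.68 (1.61-fold lower, for Kdm6a) and 0.55 (1.46-fold higher, for Tet2), so that each single interval, not adjusted for their number, excluded a 2-fold difference. Standard errors ran from 0.12 to 0.21, beside a median of 0.17 over all genes.

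**Figure D1:**
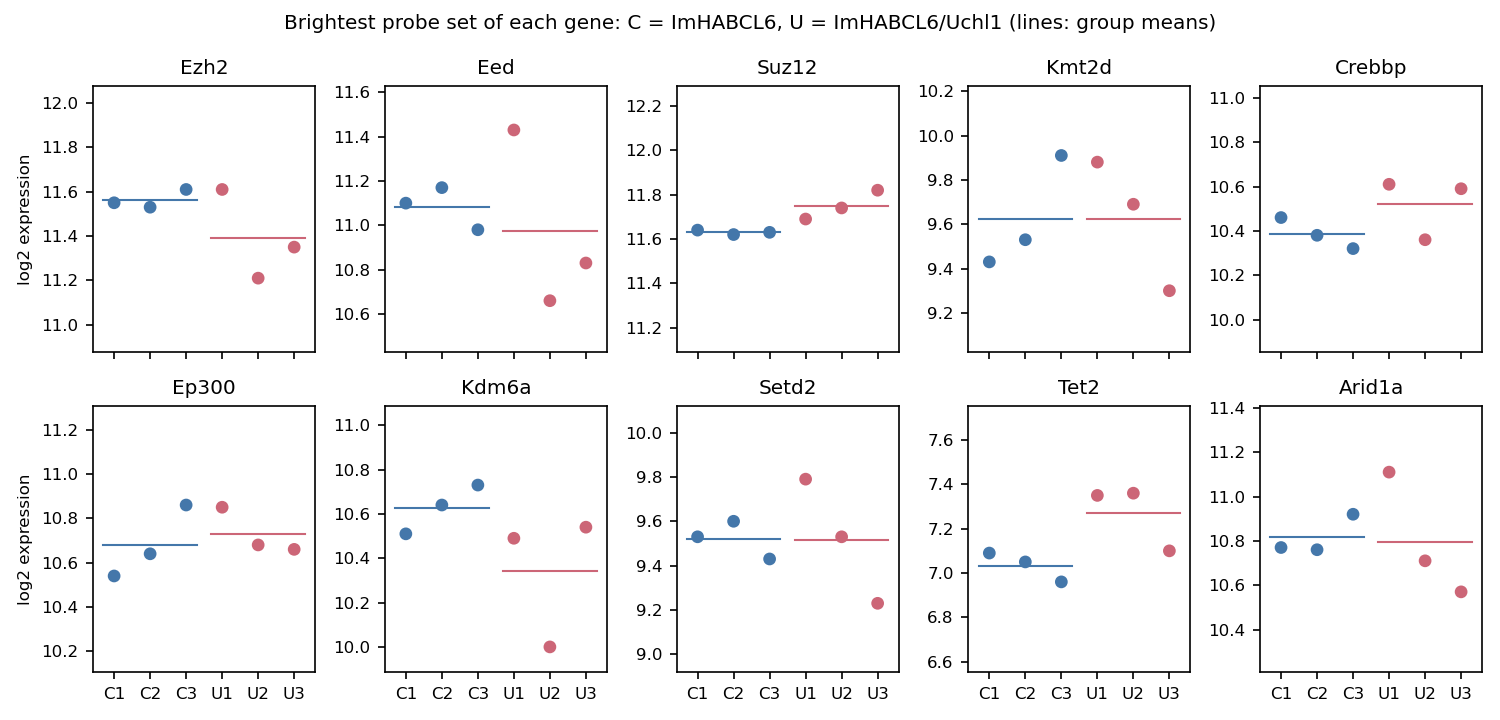
Log2 expression (y axis, each panel spanning the same range of 1.2 log2 units) of the brightest probe set of each of the 10 genes on the 6 arrays (x axis; C1 to C3 are ImHABCL6, U1 to U3 are ImHABCL6/Uchl1), with lines at the group means. Only Suz12 and Tet2 show all 3 ImHABCL6/Uchl1 arrays above all 3 controls.

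**Figure D2:**
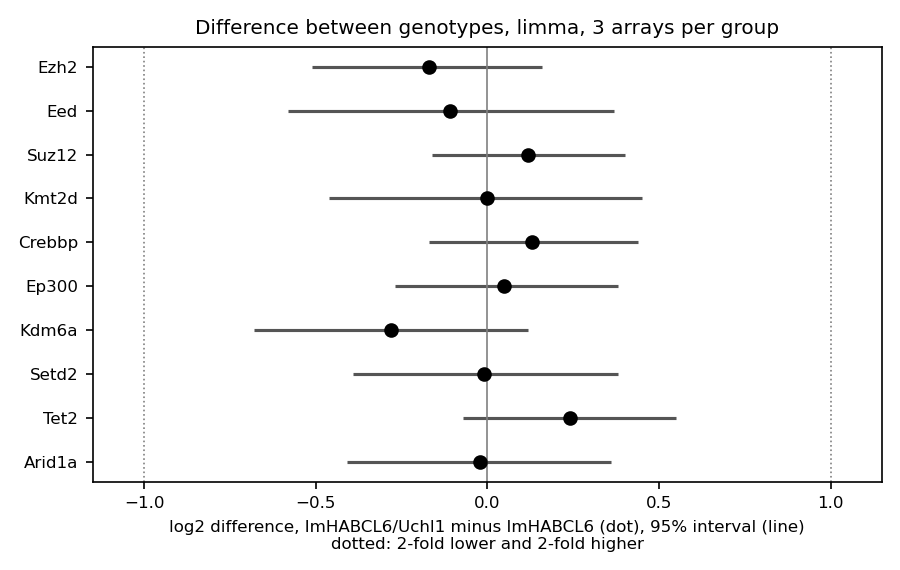
Log2 difference between the genotypes (dots, x axis) with limma's 95% interval (lines) for the brightest probe set of each gene, 3 arrays per group. Every interval crosses 0 and ends inside the dotted lines, which mark 2-fold lower and 2-fold higher.

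The 3 core subunits of PRC2 gave small differences of both signs. Ezh2, the catalytic methyltransferase, read 11.55, 11.53 and 11.61 in the controls and 11.61, 11.21 and 11.35 with the transgene. The highest transgenic array matched the highest control and the other two lay below all controls. The difference was -0.17 (SE 0.14, 95% interval -0.51 to 0.16, limma adjusted p = 0.998; exact permutation p = 0.4). Without ImHABCL6/Uchl1 replicate 2 it was -0.08, and without replicate 1 it was -0.28. Eed, which binds the methylated histone and stimulates the enzyme, read 11.10, 11.17 and 10.98 in the controls and 11.43, 10.66 and 10.83 with the transgene. Its transgenic arrays held both the highest and the lowest value, with an SD of 0.41 against 0.10 in the controls. The Eed difference was -0.11 (SE 0.21) and turned to 0.05 without ImHABCL6/Uchl1 replicate 2.

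Suz12, the scaffold that holds PRC2 together, read 11.64, 11.62 and 11.63 in the controls and 11.69, 11.74 and 11.82 with the transgene. All transgenic values exceeded all control values, by a small margin. The difference was 0.12 (SE 0.12, 95% interval -0.16 to 0.40), and the exact permutation p of 0.1 is the smallest that 3 arrays against 3 allow. The probe set behind these values (1420021_s_at) is of a suffixed kind that can match more than 1 transcript. Of the 6 Suz12 probe sets 5 gave a difference above 0, and the brightest without a suffix (1452364_at) gave -0.09, from 10.37, 10.21 and 10.15 in the controls and 10.26, 9.99 and 10.20 with the transgene. A dimmer one (1449661_at) had the largest difference, 0.31 (SE 0.15), from 6.64, 6.79 and 7.00 to 6.98, 7.31 and 7.08, with groups that overlapped.

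The sequences just upstream of the annotated starts of Ezh2 and Suz12 are shown because these subunits of 1 complex gave differences of opposite sign. They are the 130 bases before the start from RefSeq's GRCm38.p6 annotation, written 5′ to 3′ on the gene's strand. Capitals mark the CCAAT box (CCAAT), the GC box that SP factors bind (GGGCGG) and the E box (CACGTG), on either strand. The Ezh2 stretch is chr6:47595031-47595160 on the minus strand and the Suz12 stretch is chr11:79992976-79993105 on the plus strand.
Ezh2: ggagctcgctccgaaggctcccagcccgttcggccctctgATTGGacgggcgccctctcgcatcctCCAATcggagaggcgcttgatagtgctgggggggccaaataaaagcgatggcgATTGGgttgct
Suz12: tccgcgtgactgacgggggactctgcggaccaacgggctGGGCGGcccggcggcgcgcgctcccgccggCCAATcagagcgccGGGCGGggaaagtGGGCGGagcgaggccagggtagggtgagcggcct
Ezh2 held 3 CCAAT boxes and no GC box in this window, and Suz12 held 1 CCAAT box and 3 GC boxes.

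The other genes of the Polycomb machinery gave 0 calls. Of 9 measured PRC2 partners 5 were higher and 4 lower, with a median difference of 0.0014, and of -0.05 to 0.09 when single arrays were left out (replicates 1 and 2 of the transgenic group). Ezh1, the alternative catalytic subunit of less dividing cells, read 8.66, 8.66 and 8.91 in the controls and 8.52, 8.64 and 8.51 with the transgene (difference -0.19, SE 0.13). Of 16 measured PRC1 genes 10 were lower, with a median of -0.04 that was -0.21 without ImHABCL6/Uchl1 replicate 1 and 0.07 without replicate 2. Pcgf5, a RING-finger subunit, had the smallest unadjusted limma p of the list (0.0316), at 9.52 ± 0.04 in controls and 9.17 ± 0.16 with the transgene (SD, n = 3 each), a difference of -0.35 (SE 0.13, adjusted p = 0.983). Of 5 genes that EZH2 is known to repress in germinal centre B cells 4 were lower and 1 (Cdkn2a, a cell cycle inhibitor gene, named after its values were seen) was higher, by 0.0010 (SE 0.42; -0.51 without ImHABCL6/Uchl1 replicate 1 and 0.40 without replicate 2), with 0 calls and a median of -0.0046. The cell cycle inhibitor Cdkn1a was at that median (SE 0.13). Irf4, a driver of the plasma cell fate, differed by -0.0023 (SE 0.33), but by 0.38 without control 1 and by -0.29 without control 3. Prdm1, which encodes the plasma cell regulator BLIMP1, differed by -0.21 (SE 0.41), and its highest value, 8.68, was in control 1, without which the difference was 0.25. The inhibitor Cdkn1b had the largest difference, -1.02 (SE 0.52). However, its values of 8.85, 10.24 and 10.46 in the controls and 8.23, 9.86 and 8.40 with the transgene overlapped. The Cdkn1b difference was -1.54 without ImHABCL6/Uchl1 replicate 2, -0.72 without replicate 1 of that group and -0.71 without control 3. Both Cdkn1b and the erythroid markers were lowest on ImHABCL6/Uchl1 replicate 1 and highest on control 3, and the part of erythroid RNA in this difference was not tested.

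KMT2D and KDM6A sit in the same complex, in which KMT2D adds the enhancer mark and KDM6A (UTX) removes the PRC2 mark. Kmt2d read 9.43, 9.53 and 9.91 in the controls and 9.88, 9.69 and 9.30 with the transgene. Both groups covered nearly the same range, with means of 9.62 and 9.62 and a difference of -0.0004 (SE 0.20, 95% interval -0.46 to 0.45). Its dimmer probe set (1427555_at) gave 0.07 (SE 0.15).

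Kdm6a had the largest difference of the 10 genes, and that difference rested mostly on 1 array. The brightest probe set (1427672_a_at) read 10.51, 10.64 and 10.73 in the controls and 10.49, 9.998 and 10.54 with the transgene. Replicate 2 of the ImHABCL6/Uchl1 group was the lowest of all arrays, while replicate 1 lay just below the controls and replicate 3 within their range. The difference was -0.28 (SE 0.17, 95% interval -0.68 to 0.12, limma adjusted p = 0.998; exact permutation p = 0.2). A second probe set (1427235_at) read 9.96, 10 and 10.45 against 10.25, 9.38 and 9.84 (difference -0.31, SE 0.24). A further one (1445198_at) read 8.21, 8.66 and 9.19 against 8.43, 7.98 and 8.51 (difference -0.38, SE 0.26). The same transgenic array was lowest on all 3 of these probe sets, whereas the dimmest (1440524_at, mean 5.31, below the median of all probe sets) gave -0.02.

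Kdm6a lies on the X chromosome and is known to escape X inactivation, so that female cells transcribe it from both copies. The array that was lowest for Kdm6a was the one with low Xist and high Eif2s3y. The same array was lowest for Ezh2 and Eed, which are not X-linked, and for 27.9% of all genes. It was also the lowest of the 6 arrays for the other escape genes on the list: Kdm5c, a histone demethylase, at 8.73 against 9.10 to 9.36, the translation factor gene Eif2s3x at 11.00 against 11.69 to 12.03, and the RNA helicase gene Ddx3x at 11.85 against 12.15 to 12.57. Its Uty, the Y-linked counterpart of Kdm6a, read 5.24 against 3.63 to 3.81, while Kdm5d, also Y-linked, read 4.33 against 3.57 to 4.20. Without this array the Kdm6a differences were -0.11, -0.09 and -0.22 on the 3 brighter probe sets. The labels do not state the sex of the mice, and the part of sex in the Kdm6a difference was not tested beyond leaving out this array.

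**Figure D3:**
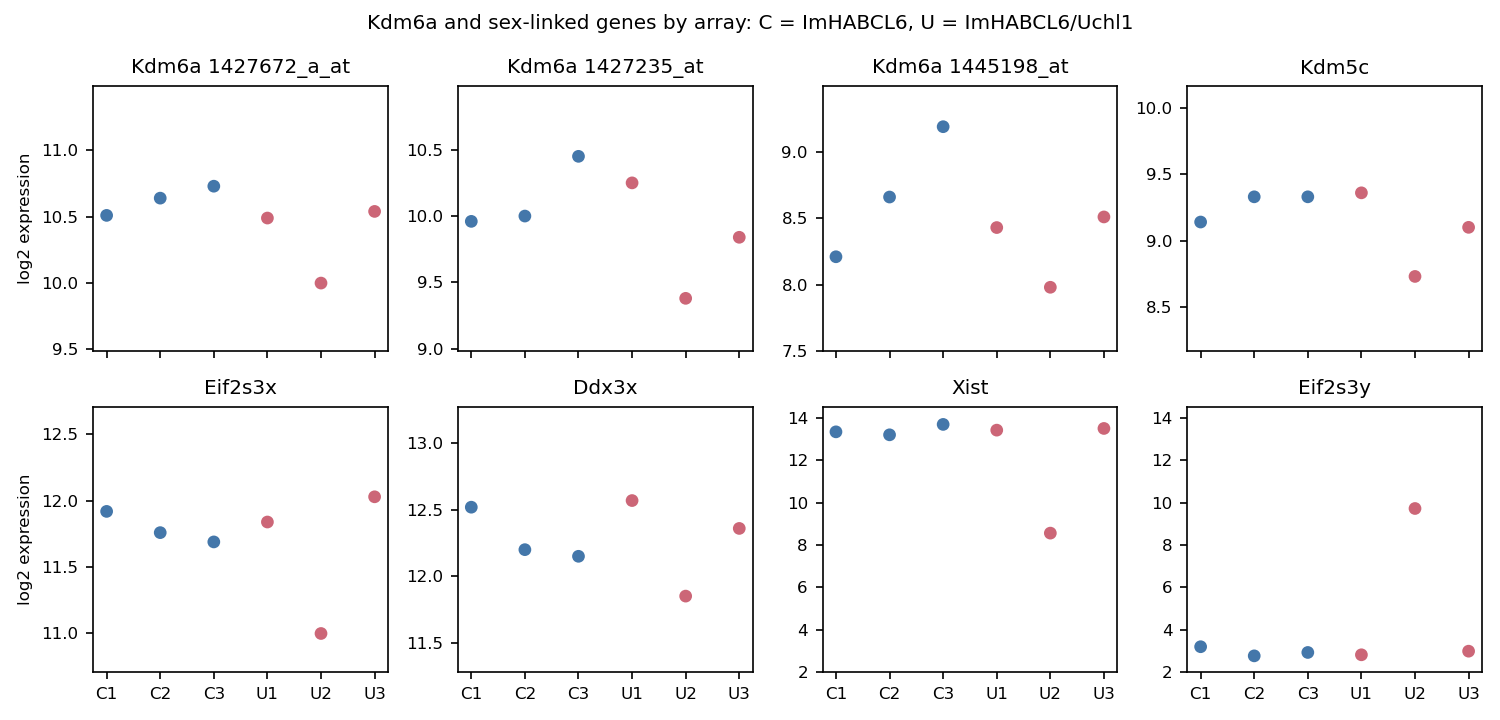
Log2 expression (y axis) of the 3 brighter Kdm6a probe sets and of 5 sex-linked genes on the 6 arrays (x axis; C1 to C3 are ImHABCL6, U1 to U3 are ImHABCL6/Uchl1). Panels share a span of 2 log2 units, except Xist and Eif2s3y, which have a wider common axis. U2 is the lowest array in every panel but Eif2s3y, where it is the highest at 9.72.

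The Kdm6a stretch is shown because its gene gave the largest difference. It is chrX:18162445-18162574 on the plus strand, the 130 bases before the annotated start, and holds 1 GC box and 1 E box in capitals.
Kdm6a: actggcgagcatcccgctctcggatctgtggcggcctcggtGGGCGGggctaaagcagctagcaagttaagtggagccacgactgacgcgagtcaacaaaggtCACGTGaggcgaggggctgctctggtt

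Of 15 measured genes listed for the KMT2 and UTX complexes 14 were lower with the transgene and 1 higher. The median difference of the list was -0.12. The higher gene was Kdm6b (0.19, SE 0.16), named after its values were seen. Whether each listed gene is a subunit of these complexes was not examined. Of all genes, dim ones included, 49.4% were lower. The genes of this list were bright (lowest mean 7.82). The median difference was 0.0029 over all genes, and -0.04 over genes at or above the median probe set signal. No gene of this list was called. The adaptor Paxip1 read 9.59, 9.64 and 9.66 in the controls and 9.56, 9.27 and 9.18 with the transgene (difference -0.29, SE 0.14). Dpy30, a core subunit shared by these methyltransferases, read 11.06, 10.97 and 10.86 against 10.84, 10.22 and 10.77 (difference -0.35, SE 0.18), and without ImHABCL6/Uchl1 replicate 2 it differed by -0.16. The median of the list was -0.10 without that replicate and -0.20 without replicate 1 of the same group. Proliferation markers were lower too, 15 of 15 measured with a median of -0.23, and their part in the list's direction was not tested.

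CREBBP and EP300 are paralogous acetyltransferases. Crebbp read 10.46, 10.38 and 10.32 in the controls and 10.61, 10.36 and 10.59 with the transgene (1436983_at). Replicates 1 and 3 of the transgenic group lay above the controls and replicate 2 among them. The difference was 0.13 (SE 0.13, 95% interval -0.17 to 0.44). Another probe set of almost the same brightness (1435224_at) gave the opposite sign, -0.10 (SE 0.14), from 10.20, 10.15 and 10.23 to 10.30, 9.95 and 10.02. The other readings of Crebbp were -0.06 (SE 0.13) and, on a dim and variable probe set, 0.07 (SE 0.50). The 95% interval of that dim probe set, -1.09 to 1.24, did not exclude a 2-fold difference. Ep300 read 10.54, 10.64 and 10.86 in the controls and 10.85, 10.68 and 10.66 with the transgene, inside the range of the controls on every array, and differed by 0.05 (SE 0.14, 95% interval -0.27 to 0.38).

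Among 13 other measured acetyltransferase genes 9 were lower and 4 higher, with 0 calls and a median of -0.02, which was -0.18 without ImHABCL6/Uchl1 replicate 1 and 0.01 without replicate 2. Kat2b (PCAF), an acetyltransferase of histone H3, had the smallest unadjusted limma p of the list, 0.0068. It read 10.57, 10.47 and 10.66 in the controls and 9.86, 10.06 and 10.22 with the transgene, without overlap, a difference of -0.52 (SE 0.14, adjusted p = 0.868). Kat2b was lowest on the array with the lowest erythroid signal, and its difference was -0.42 without that array. Genes known to depend on CREBBP or KMT2D in B cells were higher in 11 of 14 measured cases, with a median of 0.10 and 0 calls. Ciita, the master regulator of MHC class II, differed by 0.23 (SE 0.18), and its highest values were 9.54 in control 1 and 9.74 in ImHABCL6/Uchl1 replicate 1. H2-Aa, a class II chain, differed by 0.11 (SE 0.13) and the class II modulator gene H2-Oa by 0.29 (SE 0.21), whereas the receptor gene Tnfrsf14 differed by -0.46 (SE 0.24). Without ImHABCL6/Uchl1 replicate 1 the median of this list was -0.04, and without replicate 2 it was 0.21. Follicular B markers were higher too, in 6 of 6 measured cases, at 9.33 to 9.43 in the controls against 9.62 to 10.01. Their median was 0.39, or 0.31 without ImHABCL6/Uchl1 replicate 1. Pan-B markers were higher in 6 of 7, at 10.78 to 10.88 against 10.91 to 11.24. Their median was 0.13, or 0.02 without that replicate. Germinal centre B markers were mixed, 5 higher and 3 lower, with a median of 0.01, or -0.23 without that replicate. The part of B-cell markers in the direction of the CREBBP and KMT2D list was not tested.

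Setd2, the enzyme that places H3K36 trimethylation in gene bodies, read 9.53, 9.60 and 9.43 in the controls and 9.79, 9.53 and 9.23 with the transgene. The transgenic arrays spread on both sides of the controls, with an SD of 0.28 against 0.08. The difference was -0.01 (SE 0.17, 95% interval -0.39 to 0.38). Of 9 other measured genes of H3K36 methylation 5 were higher and 4 lower, with a median of 0.01, which was -0.05 without ImHABCL6/Uchl1 replicate 1 and 0.07 without replicate 2. Nsd2, which places the dimethyl mark, differed by -0.16 (SE 0.13), and Smyd2, a lysine methyltransferase, by -0.53 (SE 0.25), or -0.25 without ImHABCL6/Uchl1 replicate 2.

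Tet2 had the highest positive difference. Its brighter probe set (1455300_at) read 7.09, 7.05 and 6.96 in the controls and 7.35, 7.36 and 7.10 with the transgene. All transgenic values lay above all controls, replicate 3 by a narrow margin. The difference was 0.24 (1.18-fold; SE 0.13, 95% interval -0.07 to 0.55, limma adjusted p = 0.998; exact permutation p = 0.1). The second probe set (1438781_at) read 6.72, 6.12 and 6.87 in the controls and 6.77, 7.03 and 6.99 with the transgene, a difference of 0.36 (SE 0.21) with groups that overlapped. Suz12 and Tet2 were thus the 2 of 10 members whose transgenic arrays all lay above the controls, beside 3.95% of all genes, and 0 of 10 lay below on every array, beside 5.49% of all genes.

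The Tet2 stretch, chr3:133544391-133544520 on the minus strand, is shown because Tet2 had the highest difference. It holds 1 GC box, in capitals as its reverse complement.
Tet2: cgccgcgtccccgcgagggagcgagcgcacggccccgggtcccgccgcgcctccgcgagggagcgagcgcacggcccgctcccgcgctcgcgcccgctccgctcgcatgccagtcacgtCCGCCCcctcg

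Of the 9 other measured genes of DNA methylation and TET function 6 were higher, with a median of 0.16 and 0 calls. That median was 0.04 without ImHABCL6/Uchl1 replicate 1 and 0.09 without control 3. Tet1, the paralogue of Tet2, was dim, at 4.65, 4.55 and 4.68 in the controls and 4.68, 5.16 and 4.90 with the transgene (difference 0.29, SE 0.15). The de novo DNA methyltransferase gene Dnmt3a differed by 0.33 (SE 0.22), or 0.17 without control 3, and Uhrf1, which directs maintenance methylation in dividing cells, by -0.21 (SE 0.14).

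Arid1a read 10.77, 10.76 and 10.92 in the controls and 11.11, 10.71 and 10.57 with the transgene (1448709_at). The transgenic group again held the extremes, with an SD of 0.28 against 0.09, and the difference was -0.02 (SE 0.17, 95% interval -0.41 to 0.36). The other probe set (1417440_at) gave 0.18 (SE 0.18), with 7.79 in replicate 1 of the transgenic group as its highest value. Of 20 other BAF genes 16 were lower and 4 higher, with a median of -0.05 and 0 calls. That median was -0.15 without ImHABCL6/Uchl1 replicate 1 and 0.02 without replicate 2. Arid1b, the paralogue that replaces ARID1A in the complex, was one of the 4, at 9.95, 9.75 and 10.001 in the controls and 10.30, 10.07 and 10.11 with the transgene (difference 0.26, SE 0.14). Over the 7 lists of related chromatin genes, 60 of 91 measured genes were lower and 31 higher. Their median was -0.05, with 0 calls. An unadjusted limma p under 0.05 was found for 2 of the 91 (Pcgf5 and Kat2b), beside 4.94% of all genes.

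Different probe sets of a gene often gave differences of opposite sign, most of them about as large as their SE or smaller. Over the 25 probe sets 12 differences were below 0 and 13 above, and the smallest unadjusted limma p was 0.0733, for the Suz12 probe set 1449661_at. Of the 7 members with more than 1 probe set, Kdm6a and Tet2 had all differences on the same side of 0, on 4 and 2 probe sets. Eed, Suz12, Kmt2d, Crebbp and Arid1a had probe sets on both sides. Probe sets of a gene share its transcript and the arrays, so that they are not independent readings.

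**Figure D4:**
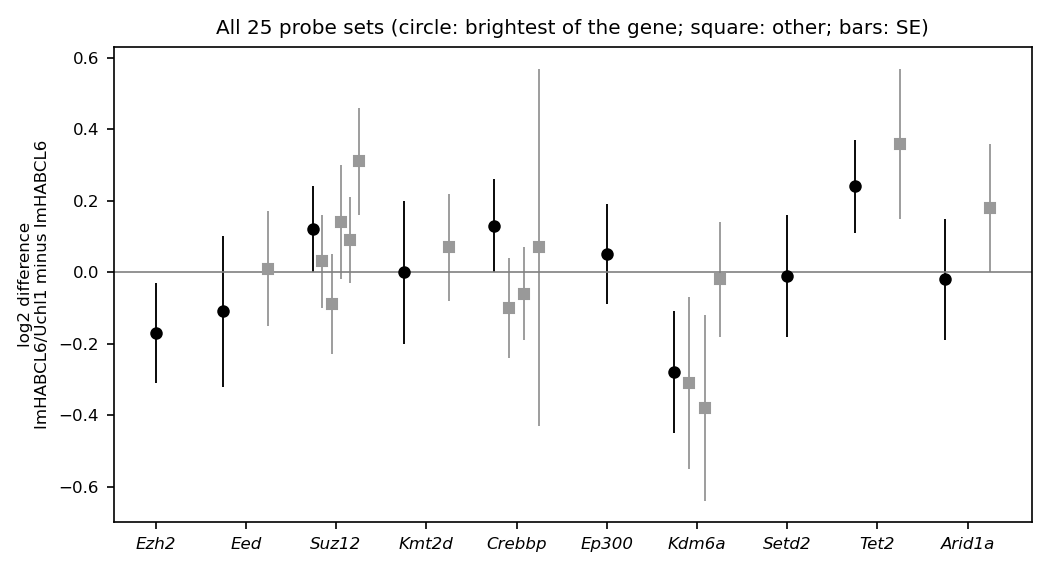
Log2 difference between the genotypes (y axis) for all 25 probe sets, grouped by gene (x axis), with circles for the brightest probe set of a gene, squares for the others and bars for limma's SE. The Kdm6a points lie below 0 and the Tet2 points above, while Suz12 and Crebbp have points on both sides.

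For 9 of the 10 genes the SD was larger among the transgenic mice than among the controls (all but Ep300), beside 69.4% of all genes, and single arrays shaped several values. ImHABCL6/Uchl1 replicate 1 was the highest array for 5 of the 10 genes, beside 22.6% of all genes. It was also the array with the lowest erythroid markers and the highest pan-B markers (11.24, against 10.78 to 10.92 on the others). ImHABCL6/Uchl1 replicates 2 and 3 were each lowest for 3 of the 10, beside 27.9% and 14.9% of all genes. With the erythroid score as a covariate, Eed differed by -0.45, Kdm6a by -0.40 and Ezh2 by -0.33, and the smallest adjusted p of a member was 0.287 in limma. With the proliferation score as a covariate, which itself separated the groups, Ezh2 differed by 0.04 and Kdm6a by 0.20. The brightest probe sets of Crebbp and Tet2, or the mean of each gene's probe sets, gave a positive difference under all 17 alternatives fitted. The range was 0.01 to 0.26 for Crebbp and 0.03 to 0.33 for Tet2. Several alternatives could not change these values: the replicate block, the variance model, the dim-gene filter and testing each probe set alone. Leaving out suffixed probe sets could not either, since neither brightest probe set has a suffix. On their own, 2 of the 4 Crebbp probe sets were negative, at -0.10 and -0.06.

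**Figure D5:**
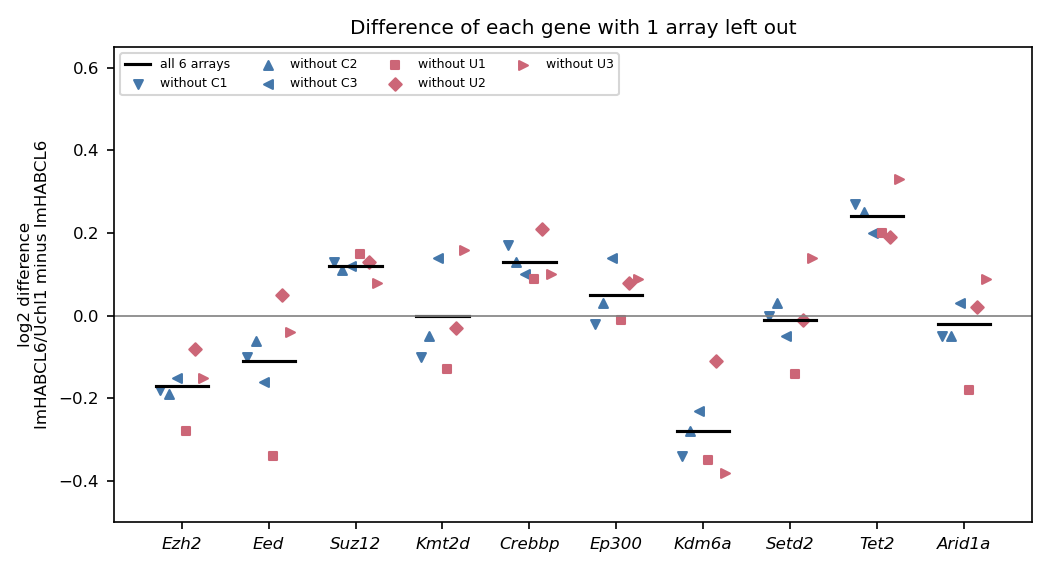
Log2 difference between the genotypes (y axis) for each gene (x axis) from all 6 arrays (black lines) and with each array left out in turn (symbols; C1 to C3 are ImHABCL6, U1 to U3 are ImHABCL6/Uchl1). Kdm6a moves from -0.28 to -0.11 without U2, and Eed runs from -0.34 without U1 to 0.05 without U2.

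The promoters of the 10 genes were compared with 32851 promoters of the RefSeq table over the 250 bases before the start, on both strands. Arid1a has 2 annotated starts, so that there were 11 stretches, with a GC content of 54.4% (Eed) to 84% (Crebbp), beside a median of 52.4% over all promoters. The GC box GGGCGG was found in 8 of 10 genes (all but Ezh2 and Eed) and in 32.7% of all promoters. The CCAAT box was found in Ezh2 and Suz12 and in 33.8% of all promoters, and the E box CACGTG in Kdm6a and in 6.02%. An E2F motif (TTTCCCGC) was found in Suz12, 219 bases before the start, and in Arid1a, and in 0.895% of all promoters. A BCL6-like core (TTCNNNGAA) was found in Kmt2d and in 7.02%. The NRF1 letters GCATGCGC and the ETS letters CCGGAAG were in none of the members' windows and in 2.26% and 6.91% of all promoters. These matches describe letters in a window, and the motifs do not overlap each other in the stretches printed.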

How the data were processed

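Each deposited value is the log2 signal of a probe set, per the submitters' processing notes from RMA; the notes also name Partek, and no version is stated in the labels. RMA normalizes between arrays and compresses differences of dim probe sets. Gene names came from the platform annotation GEO holds, matched by Entrez identifier to RefSeq (GRCm38.p6). Of the probe sets, 34945 had 1 gene symbol; 932 with several and 9160 with none stayed unnamed. The brightest probe set on average stood for each of 18193 genes.

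The genotypes were tested in limma 3.58.1 under R 4.3.3 (lmFit and eBayes, two-sided), adjusting by Benjamini-Hochberg across all 18193 genes; calls needed an adjusted p under 0.05. The p-values measure the spread between 3 mice per group, as the design text counts them. Exact two-sided permutation tests were added for single genes (smallest p 0.1). The fit was tested on simulated data. Lists were described by counts and medians. The genes named are all members, Uchl1, the sex-linked list, and up to 4 genes of smallest unadjusted p in each other list. Cdkn2a and Kdm6b were named in addition. The members and lists were chosen with earlier results of these data known. Alternatives changed the probe set rule, dim-gene filter, normalization, variance model, array weights, replicate block, covariates or arrays used. The number of arrays limits the precision.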

Additional observations from a re-analysis of the deposited data

How the results depend on the processing

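No member was called by limma under any of the 17 alternatives fitted (smallest adjusted p 0.287, for Eed once the erythroid score entered as covariate), and the count of genes called over the whole table was 0 in each, as at an adjusted p under 0.10; at an unadjusted p under 0.05 it was 898, with 0 members. The labels do not state that replicate numbers pair the mice, and they were not taken to do so. Same-numbered arrays had residual correlations of 0.43, 0.19 and -0.26, while control 3 and ImHABCL6/Uchl1 replicate 2 had 0.53. A replicate block cannot change a member's difference in this balanced design. With it 0 genes were called, and 1002 had an unadjusted limma p under 0.05. That count was 2819 with array weights, 2856 with the erythroid and 205 with the proliferation covariate, and 387 to 1330 without single arrays; Eed in the erythroid fit was the 1 member among them. The median of the members, -0.0033, was -0.15 with array weights and ran from -0.14 to 0.09 when single arrays were left out. The weights of ImHABCL6/Uchl1 replicates 1 to 3 were 0.51, 0.30 and 3.30, so that replicate 3 dominated the transgenic mean in the weighted fit. Several signs turned, that of Kdm6a only with the proliferation covariate. With the mean of all probe sets Kmt2d was at 0.04 and Arid1a at 0.08. Without suffixed probe sets Suz12 was at -0.09. Quantile normalization gave 0.09 for Kmt2d, 0.08 for Setd2 and 0.05 for Arid1a. The proliferation covariate gave 0.04 for Ezh2, 0.05 for Eed, 0.11 for Kmt2d, 0.20 for Kdm6a and 0.09 for Arid1a; it separates the groups, so that it and genotype are hard to part. Leaving out single arrays gave -0.13 to 0.16 for Kmt2d, -0.14 to 0.14 for Setd2, -0.18 to 0.09 for Arid1a, -0.02 to 0.14 for Ep300 and -0.34 to 0.05 for Eed. The cause of these turns was not tested. Precision is limited by 3 arrays per group, and 3 of the 25 probe sets lay below the median signal of all probe sets.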
